A study of Mus musculus with 2 samples.

Results

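Potassium channel subunits were examined in RNA pulled down on the ribosomes of Drd2-expressing cells, taken from adult mouse medial prefrontal cortex. Members were the probe sets whose annotation names a single gene with a symbol made of Kcn, 1 or more letters and a number, which covers pore-forming subunits of every potassium channel class and their auxiliary subunits. This gave 93 of 34472 probe sets and 86 of 22180 named genes, in 20 letter subfamilies. Of 92 genes of this symbol pattern in RefSeq, the other 6 were not analysed here.

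The samples form 1 group, D2Cre::RiboTag mice, in which Cre expressed from a Drd2 driver lets a cell make ribosomes with a haemagglutinin tag. RNA was taken from ribosomes precipitated with an antibody to that tag. Per the labels each array is a technical replicate from 5 pooled cortices, and both are taken to share this pool, although no label states it. Neither input RNA, a mock precipitation nor another condition was analysed here, so the data give signal in this RNA and hold neither enrichment nor a difference between conditions, and no test between groups was possible. A cell that had expressed Drd2 earlier can keep the tag, so the tag marks the history of the driver and not the present level of Drd2.

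Potassium channels let potassium ions leave the cell, which sets the resting membrane potential, ends the action potential and limits repetitive firing. Voltage-gated channels are tetramers of alpha subunits that open on depolarisation, and inward rectifiers pass current more readily inward than outward. Tandem-pore channels carry the background leak, and other channels open when calcium or sodium rises inside the cell. The dopamine D2 receptor acts through inhibitory G proteins, whose beta-gamma subunits open the inward rectifiers known as GIRK channels.

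Values are log2 signals, given as replicate 1 and then replicate 2, and where a gene had several probe sets they were averaged. The scale is inferred from the values. Background was taken from 1394 genes of olfactory and vomeronasal receptors, and a gene was called above it where it passed their 95th percentile, 5.61 and 5.66, on both arrays. A stricter percentile of these genes, the 99th, was 6.64 on both arrays, and the 95th percentile of 34 genes of testis, liver and skeletal muscle, called the out-of-tissue threshold, was 7.22 and 6.97. Probe sets differ in how strongly they bind, so the signal of a gene is set against these thresholds and not against that of another gene. The spread between the arrays is technical and holds none of the variation between animals.

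Most subunit genes gave signal over the background. Of the 86 genes, 69 (80.2%) were above background, 3 were above it on 1 array and 14 on neither. Of all 22180 named genes 60.3% were above background, and leaving out the sensory receptors that set the threshold, 64.1% of 20786 genes were. Among the out-of-tissue genes, 1 of 11 from testis, 2 of 12 from liver and 6 of 11 from skeletal muscle were above it too. A call above background alone therefore does not show that a transcript was present. The 99th percentile was passed by 59 of the 86 subunit genes, against 9983 of all 22180 named genes (45.0%). The out-of-tissue threshold was passed by 56, against 8592 of all named genes (38.7%). Without the sensory receptors, 9972 and 8589 of the 20786 genes passed these thresholds. The median signal of the subunits was 7.98, beside 6.36 for all named genes and 6.57 without the sensory receptors. In comparison, sodium, calcium, HCN and TRP channels passed in 46 of 60 genes (76.7%) and had a median of 8.22, a difference that was not tested.

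Subunits were also counted by where they are known from. A list of 45 subunits known as the main ones of cortical neurons had 41 measured genes, and all 41 passed the background, the 99th percentile and the out-of-tissue threshold. Another list of 14 subunits known mainly outside the brain or in non-neuronal brain cells had 13 measured genes. Of these, 4 were above background (Kcnj8, Kcnj15, Kcnj16 and Kcnk16) and 0 passed either stricter threshold. Over all named genes, 60.3% were above background, 45.0% passed the 99th percentile and 38.7% the out-of-tissue threshold. The astrocyte rectifier Kcnj10 stood in the first list, and it passed every threshold; counted with the second, it would be the 1 gene there to do so. Both lists were written from general knowledge of these genes with some earlier results of these data known. They are a description and no test.

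**Figure D1:**
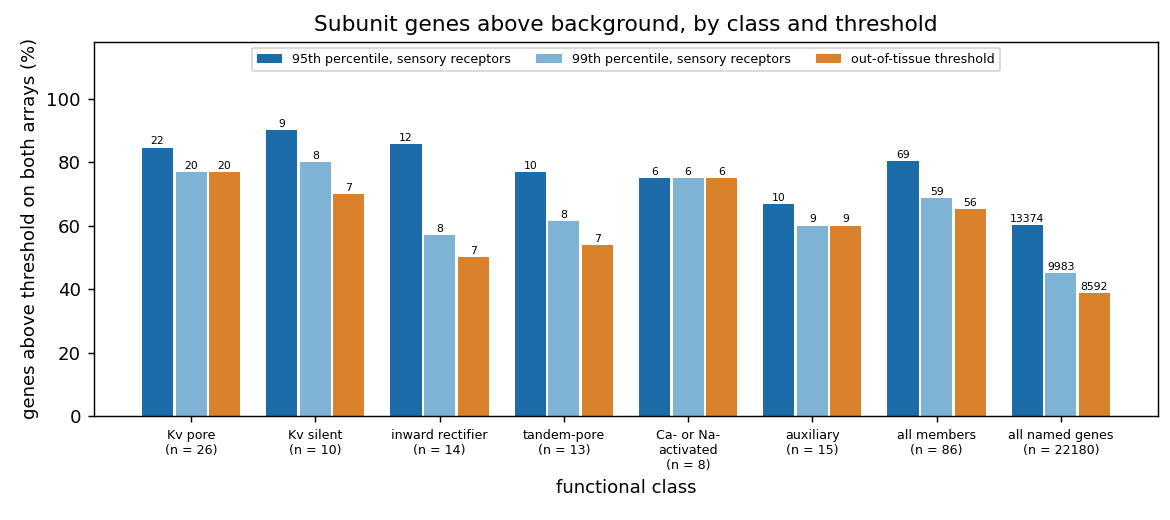
Share of genes above 3 thresholds on both arrays, by functional class of the subunit (Kv stands for voltage-gated alpha subunits), for all subunit genes and for all named genes. Bars start at 0, the numbers over them count genes, and the class size stands under each class; 69 of 86 subunit genes passed the sensory receptor threshold and 56 the out-of-tissue threshold.

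The captured RNA carried transcripts of Drd2 and of neurons, together with those of other cells. Drd2 was at 10.78 and 10.70, and all 4 neuronal, all 4 glutamatergic and all 6 GABAergic markers passed the out-of-tissue threshold. So did all 4 measured markers of striatal projection neurons. Of the 3 markers of dopamine neurons, 2 passed the background and 0 the out-of-tissue threshold. Markers of other brain cells also passed the background: 5 of 5 for astrocytes, 4 of 4 measured for oligodendrocytes, 3 of 3 for their precursors, 5 of 5 for microglia and 6 of 6 for endothelial and mural cells. The out-of-tissue threshold was passed by 3, 3, 1, 2 and 3 of them. In a pooled lysate, fewer cells of a type and less RNA per cell cannot be told apart. How far RNA from cells without the tag adds to any subunit signal was not tested.

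Among pore-forming voltage-gated alpha subunits, 22 of 26 genes passed the background, beside 60.3% of all named genes. The class had a median of 9.11. In the Shaker family (Kcna), whose axonal members hold back firing, 6 of 8 genes passed. Kcna1, the subunit mutated in episodic ataxia, was at 10.59 and 10.43. Its frequent axonal partner Kcna2 was at 10.20 and 10.37. Kcna3, also known from lymphocytes, was at 9.64 and 9.67. These subunits lay far over every threshold, with array differences of at most 0.17 log2 units. Kcna4, which forms rapidly inactivating channels, averaged 7.96 and 7.97 from probe sets with means of 7.67 and 8.26. Kcna6 averaged 7.80 and 7.79 from probe sets with means of 6.84 and 8.75, of which the lower lay under the out-of-tissue threshold. Kcna5, known from heart and vessels, was above background at 6.58 and 6.67 but under the out-of-tissue threshold. The remaining members of the family were not called: Kcna10, known from kidney and inner ear, exceeded the background on replicate 1 alone at 5.81 and 5.42. Kcna7, known from muscle, was at 5.21 and 5.46.

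The Kcnb, Kcnc and Kcnd families were above background in every measured member. The somatic and dendritic delayed rectifier Kcnb2 was at 9.11 and 8.92. In the fast-spiking family (Kcnc), which lets parvalbumin interneurons fire at high rates, Kcnc1 was at 9.81 on both arrays, Kcnc2 at 9.65 and 9.53, and Kcnc4 at 9.40 and 9.29. The parvalbumin gene Pvalb was at 8.25 and 8.20 in the same RNA. The A-type family (Kcnd) carries the transient current of dendrites. Kcnd2, its main subunit in pyramidal cell dendrites, was at 11.51 and 11.43, and Kcnd3 was at 9.21 and 9.18. Kcnd1 passed every threshold too, at 7.48 and 7.49.

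The ether-a-go-go family (Kcnh) passed in 7 of 8 genes, and its members ranged from a mean of 4.92 to one of 11.16. Kcnh1 and Kcnh5, of the ether-a-go-go branch, were at 9.79 and 9.55 and at 9.44 and 9.38. In the branch of the cardiac repolarising channel, Kcnh2 was at 8.61 and 8.72 and Kcnh7, known from the nervous system, at 11.08 and 10.93. The third member of that branch, Kcnh6, was just above the background, at 5.84 and 5.68, which is 0.02 over the threshold on replicate 2. In the branch known as ELK, Kcnh3 was at 11.08 and 11.24 and Kcnh4 at 7.74 and 8.10, whereas Kcnh8 was not above background at 5.05 and 4.78. Each branch except that of Kcnh1 and Kcnh5 thus held a member that missed the stricter thresholds.

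Subunits of the M-current, the slow current that muscarinic receptors close, are encoded in the Kcnq family. Kcnq3 was at 10.65 and 10.59. Kcnq5 averaged 8.43 and 8.24, from probe sets with means of 5.85 and 10.82, the largest gap between probe sets of any subunit gene. Kcnq1, the subunit of heart and epithelia, was not above background at 5.26 and 5.34.

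Silent subunits form no channel alone and alter the gating of Kcnb channels when they join them. Of the 10 genes of this kind, 9 passed the background and 7 the out-of-tissue threshold, beside 60.3% and 38.7% of all named genes. The median over all 10 was 7.77. Kcnv1 was at 10.64 and 10.55, and Kcnf1 was at 9.78 and 9.82. In the Kcns subfamily, Kcns2 was at 8.35 and 8.43, Kcns3 at 7.25 and 7.15 and Kcns1 at 6.86 and 7.11, the last of which missed the out-of-tissue value on replicate 1. All 4 Kcng genes passed the background: Kcng1 was at 8.25 and 8.29, and the others had means from 6.62 (Kcng2) to 8.01 (Kcng3). The exception was Kcnv2, known from photoreceptors, at 4.75 and 4.46. The arrays thus separated the members of the Kcnv pair, one far over and the other under every threshold.

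**Figure D2:**
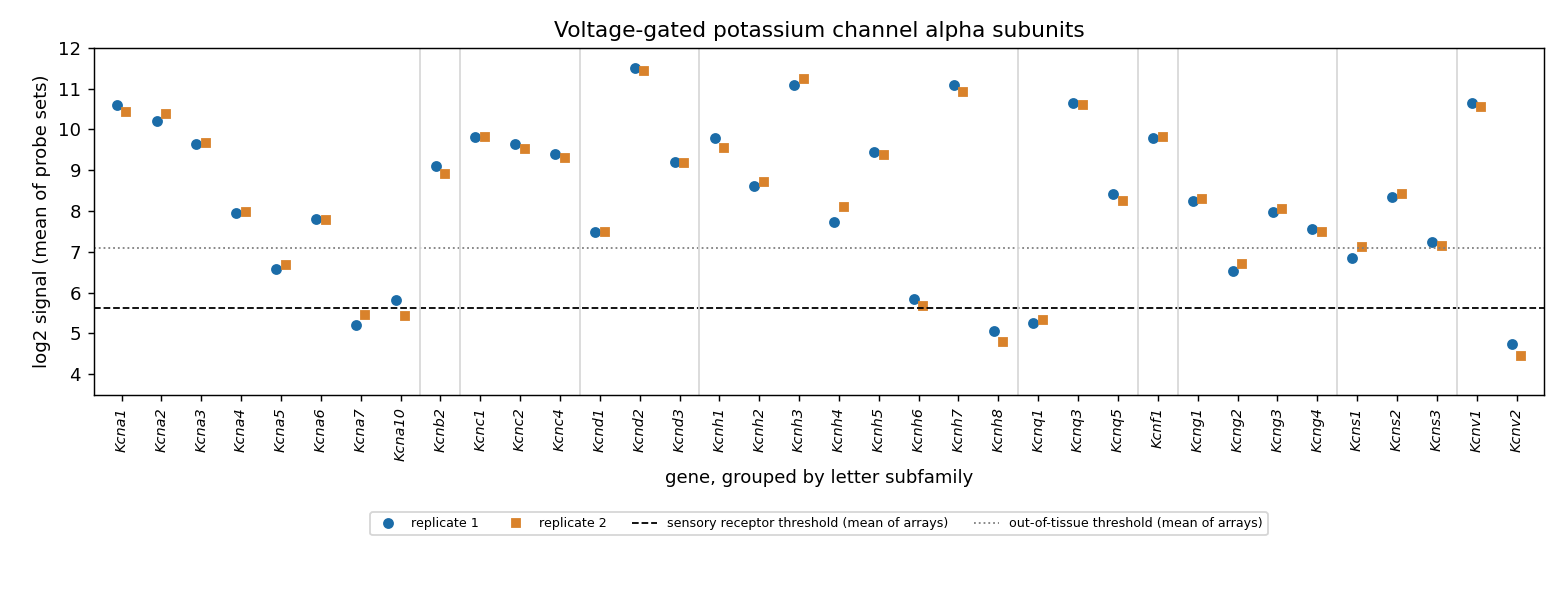
Log2 signal of each voltage-gated alpha subunit gene on replicate 1 (circles) and replicate 2 (squares), grouped by letter subfamily, with the sensory receptor threshold (dashed) and the out-of-tissue threshold (dotted) as means of the arrays. Kcna7, Kcnh8, Kcnq1 and Kcnv2 lie under the dashed line on both arrays, and Kcnd2, at 11.51 and 11.43, lies far over both lines.

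Inward rectifiers passed the background in 12 of 14 genes, beside 60.3% of all named genes, and had a median of 7.495. The out-of-tissue threshold was passed by 7, beside 38.7% of all named genes. The GIRK subunits, effectors of the D2 receptor, were not all called. Kcnj6, the subunit that can form channels alone in dopamine neurons, was at 8.31 and 8.24. Kcnj9 was at 10.14 and 10.19. Kcnj3 averaged 8.61 and 8.51, from probe sets at 10.55 and 10.40 and at 6.66 and 6.62, the latter under the out-of-tissue threshold. Kcnj5, the GIRK subunit of the heart atrium, exceeded the background on replicate 1 alone, at 5.64 and 5.41. Thus the 3 GIRK subunits known as neuronal passed every threshold by their gene means, and Kcnj5 did not pass the background on both arrays.

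The classical strong rectifiers hold the resting potential. Kcnj4, abundant in forebrain and striatal projection neurons, was at 10.13 and 10.06, and Kcnj2 was at 8.03 and 7.98. Kcnj12, with a mean of 6.99, passed the 99th percentile and missed the out-of-tissue threshold on both arrays. Kcnj14, at 6.40 and 6.69, passed the background. The pore subunit of the neuronal ATP-sensitive channel, Kcnj11, was at 8.39 and 8.44, and its sulfonylurea receptor partner Abcc8 was at 8.37 and 8.40. The other ATP-sensitive pair, known from pericytes and smooth muscle, lay lower against the thresholds: Kcnj8 was at 5.83 and 5.86 and Abcc9 at 6.18 and 6.28, both under the 99th percentile. All 6 endothelial and mural markers were above background in this RNA, with means from 6.04 to 8.04 and summed linear signals of 819 and 767, and their part in the Kcnj8 and Abcc9 signals was not tested.

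Glial and epithelial rectifiers gave mixed results. Kcnj10, the main inward rectifier of astrocytes, was at 8.42 and 8.32, over every threshold. Its glial partner Kcnj16 was at 6.14 and 6.49, over the background and under the 99th percentile. The 5 astrocyte markers had means from 6.67 (Gfap) to 8.64 (Slc1a3) and summed linear signals of 1036 and 995, and 2 of them, Gfap and Aqp4, missed the out-of-tissue threshold. Their part in the Kcnj10 signal was not tested. Of the rectifiers known from kidney, Kcnj1 was not above background at 4.85 and 5.20, and Kcnj15 was just above it at 5.78 and 5.70.

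Tandem-pore channels, which carry the leak current, passed the background in 10 of 13 genes, beside 60.3% of all named genes. They had a median of 7.44. Kcnk1, of the weak inward rectifying branch, was at 10.77 and 11.02, and its relative Kcnk6 at 7.33 and 7.54. The lipid-sensitive and stretch-sensitive branch passed throughout: Kcnk2 was at 8.26 and 8.15, Kcnk4 at 9.04 and 9.16 and Kcnk10 at 7.38 and 7.63. In the acid-sensitive branch Kcnk9 was at 9.15 and 9.21, and its silent relative Kcnk15 was above background alone at 6.01 and 6.08. The halothane-inhibited branch held Kcnk12 at 8.22 and 8.27 and Kcnk13, which microglia also use, at 7.10 and 7.09, which missed the out-of-tissue threshold on replicate 1. The 5 microglial markers had means from 5.85 to 7.84 and summed linear signals of 653 and 710, and their part in the Kcnk13 signal was not tested.

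The other tandem-pore genes are known from elsewhere or as non-conducting. Kcnk5, of kidney and other epithelia, was at 4.92 and 5.11. Kcnk18, of sensory ganglia, was at 5.31 and 5.12. Kcnk7, for which no current of its own is known, was at 4.71 and 5.23, and its arrays differed by more than 0.5 log2 units. Kcnk16, known from pancreas, was above background at 6.19 and 5.93 and under the 99th percentile.

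Channels opened by calcium or sodium were above background in 6 of 8 genes, and these 6 also passed the out-of-tissue threshold. The shares over all named genes were 60.3% and 38.7%. Kcnma1, the large-conductance channel gated by both calcium and voltage, averaged 8.57 and 8.54. Its probe sets lay at 11.01 and 10.94 and at 6.13 and 6.14, a gap many times the difference between the arrays. The small-conductance subunits of the afterhyperpolarisation, Kcnn1, Kcnn2 and Kcnn3, were at 7.97 and 7.88, at 7.79 and 7.63, and at 8.76 and 8.77. The sodium-activated subunits Kcnt1 and Kcnt2 were at 10.05 and 10.07 and at 9.27 and 8.98. Those not above background were Kcnn4, the intermediate-conductance channel of blood cells and epithelia, at 5.00 and 5.34, and Kcnu1, the sperm channel, at 4.08 and 4.26.

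Auxiliary subunits were the class with the fewest calls for its size at the background, 10 of 15 (66.7%). That share is near the 60.3% of all named genes. At the out-of-tissue threshold the class with the fewest was the inward rectifiers, 7 of 14, beside 38.7% of all named genes. Auxiliary calls split by subfamily. The Kcnip subunits are calcium-binding proteins that bring Kcnd channels to the membrane. Kcnip1 was at 9.45 and 9.51, Kcnip2 at 9.57 and 9.59, Kcnip3 at 9.74 on both arrays and Kcnip4 at 9.99 on both arrays. All 4 therefore passed every threshold, as did the Kcnd genes with which their proteins assemble. Dpp6 and Dpp10, the other known partners of Kcnd channels, were at 10.83 and 10.71 and at 11.28 and 11.02.

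The cytoplasmic beta subunits of Shaker channels were likewise above every threshold. Kcnab1 was at 9.01 and 8.96 and Kcnab2 at 10.37 and 10.34. Kcnab3 averaged 7.32 and 7.60 from probe sets with means of 5.99 and 8.94, of which the lower missed the out-of-tissue threshold.

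Beta subunits of the Kcnma1 channel were called in 2 of 4 genes. Kcnmb4, the neuronal one, averaged 7.75 and 7.87 from probe sets with means of 6.92 and 8.695. The lower of these missed the out-of-tissue threshold on replicate 1. Kcnmb2 was at 7.55 and 7.16, the largest array difference (0.39) among subunit genes above background. Kcnmb1, the smooth muscle subunit, was not above background at 5.23 and 4.78. The smooth muscle gene Acta2 was at 8.12 and 7.95 in this RNA, but the skeletal muscle gene Acta1, of the out-of-tissue genes, was at 7.89 and 8.08. Kcnmb3 exceeded the background on replicate 2 alone, at 5.13 and 5.77. The small single-span Kcne subunits, best known from heart and epithelia, were not above background in 3 of 4 genes, with Kcne1 at 5.51 and 5.22, Kcne2 at 4.75 and 4.64 and Kcne3 at 5.33 and 5.51. Kcne4 was above background at 5.87 and 5.83 and under the 99th percentile, so 0 of these 4 passed the stricter thresholds. Kcne1l, which has a symbol outside the pattern and is not counted here, did pass both, at 7.30 and 7.10.

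**Figure D3:**
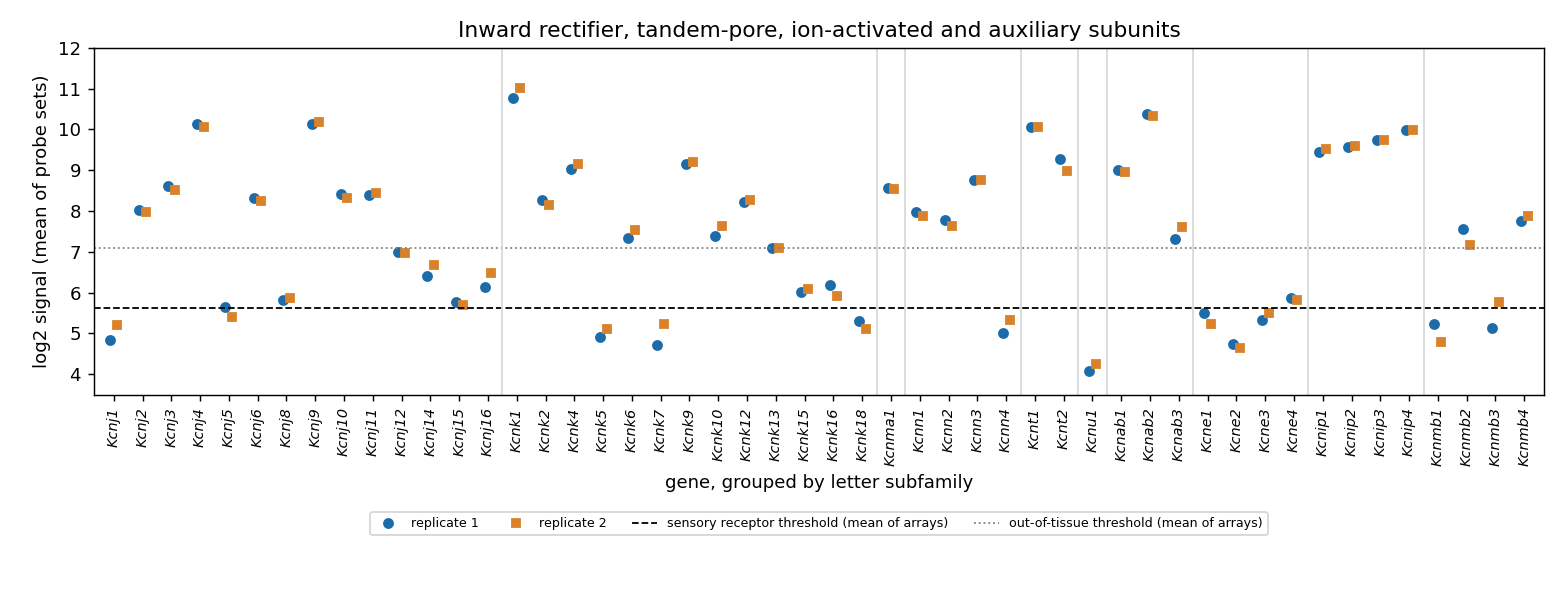
Log2 signal of each inward rectifier, tandem-pore, calcium- or sodium-activated and auxiliary subunit gene on replicate 1 (circles) and replicate 2 (squares), with the sensory receptor threshold (dashed) and the out-of-tissue threshold (dotted) as means of the arrays. All 4 Kcnip genes lie between 9.45 and 9.99, and all 4 Kcne genes lie at or under 5.87.

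Genes of the channel complexes with other symbols were mostly above background. Of 22 listed partners 19 were measured and 18 passed, 14 of them also the out-of-tissue threshold, with a median of 9.52. The shares over all named genes were 60.3% and 38.7%. Ank3, the ankyrin that anchors Kcnq channels at the axon initial segment, was at 11.35 and 11.21. Cntnap2, which clusters Shaker channels beside the node of Ranvier, was at 10.74 and 10.70, and Lgi1, a secreted protein of the Shaker complex, was at 11.01 and 10.92. Amigo1, an adhesion protein of Kcnb channels, was at 8.73 and 8.79. Of the 5 measured partners that missed the out-of-tissue threshold, 4 were leucine-rich gamma subunits of the Kcnma1 channel and the other was Abcc9. Lrrc52, known from testis, was not above background at 5.61 and 5.45. Lrrc26, Lrrc38 and Lrrc55 passed the background and missed the out-of-tissue threshold.

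Subunit genes repeated between the arrays about as well as other genes. The SD of the difference between arrays was 0.147 log2 units over the 69 subunit genes above background, beside 0.149 over all named genes above background. It was 0.333 over the 17 subunit genes not above background, beside 0.291 over all such named genes. Replicate 1 was higher in 42 subunit genes and replicate 2 in 41, and 3 had equal values. Differences of more than 0.5 log2 units were seen in 2 of the 93 probe sets (Kcnk7 and Kcnmb3), beside 5.23% of all probe sets, and neither gene was above background on both arrays. After Kcnmb2, the largest differences among subunits above background were those of Kcnh4 (0.36), Kcnj16 (0.35), Kcnj14 (0.29) and Kcnt2 (0.29).

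**Figure D4:**
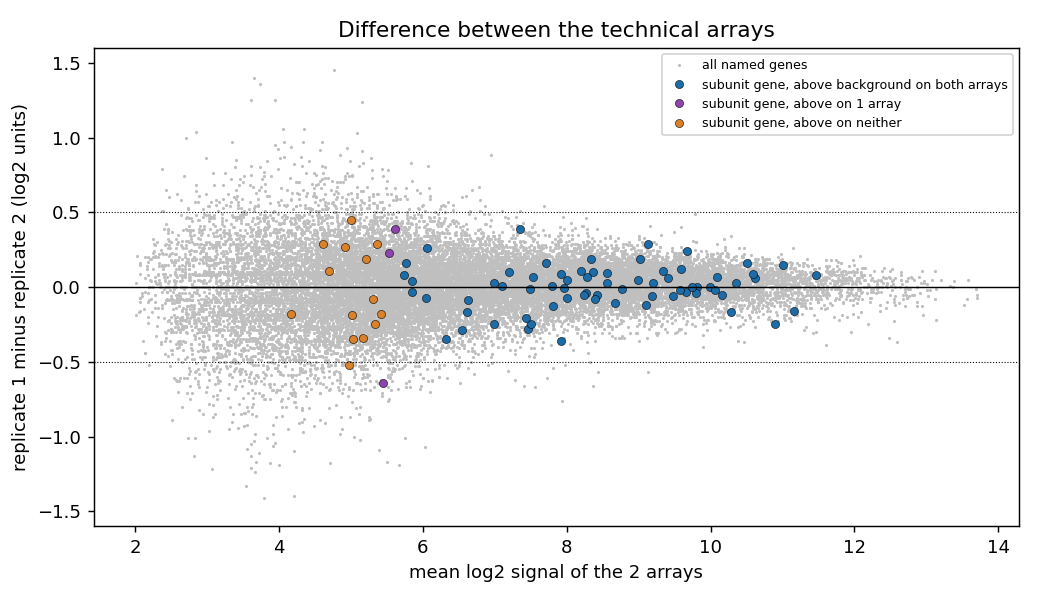
Difference between the technical arrays (replicate 1 minus replicate 2, log2 units) against the mean log2 signal for all named genes (grey) and for subunit genes by the number of arrays on which they were above background. Dotted lines mark 0.5 log2 units in either direction, and no subunit gene above background on both arrays lies outside them.

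The choice of probe set moved the level of a subunit far more than the choice of array. Of the subunit genes, 7 had a pair of probe sets, with gaps from 0.60 (Kcna4) to 4.97 (Kcnq5) log2 units between them. In none of the 7 did the probe sets lie on different sides of the background. At the out-of-tissue threshold they did so in 6, the exception being Kcna4. What part of each transcript a probe set covers was not analysed here.

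Of the 86 subunit genes, 18 lie next to another in the genome, and neighbours were not always called alike. In the gene order of RefSeq (assembly GRCm38.p6), 10 pairs of subunit genes had no other protein-coding gene between them, and the members of 7 pairs were on the same side of the background. Since 80.2% of all subunit genes were above background, most pairs of unrelated subunits would also be on the same side. Whether neighbours are alike more often was not tested. The 3 pairs that differed were Kcnip1 and Kcnmb1, Kcnk16 and Kcnk5, and Kcna2 and Kcna10. The last pair belongs to a run of Shaker genes on chromosome 3, Kcna3, Kcna2 and Kcna10, of which Kcna3 and Kcna2 were above every threshold and Kcna10 was called on 1 array alone. Pairs on the same side included the GIRK gene Kcnj9 with the astrocyte gene Kcnj10, and the heart and kidney rectifier genes Kcnj5 and Kcnj1, neither of which was above background.

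Upstream sequences are shown for this run of neighbours, which share a family and differ in signal, and for a pair of genes whose CG content runs the other way; all 5 were chosen after their values were seen. Each is the 250 bases before the annotated start in RefSeq (GRCm38.p6), 5′ to 3′ on the gene's strand, in lower case with every CG dinucleotide in capitals. CG dinucleotides are dense in the CpG islands where many broadly used promoters lie.
Kcna3, chr3:107035912-107036161, plus strand: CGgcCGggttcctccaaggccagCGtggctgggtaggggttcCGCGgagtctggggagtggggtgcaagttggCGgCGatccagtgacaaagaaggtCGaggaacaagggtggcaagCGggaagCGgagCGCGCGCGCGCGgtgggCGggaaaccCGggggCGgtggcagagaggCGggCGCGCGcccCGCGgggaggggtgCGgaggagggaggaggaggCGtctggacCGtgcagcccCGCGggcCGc
Kcna2, chr3:107101317-107101566, plus strand: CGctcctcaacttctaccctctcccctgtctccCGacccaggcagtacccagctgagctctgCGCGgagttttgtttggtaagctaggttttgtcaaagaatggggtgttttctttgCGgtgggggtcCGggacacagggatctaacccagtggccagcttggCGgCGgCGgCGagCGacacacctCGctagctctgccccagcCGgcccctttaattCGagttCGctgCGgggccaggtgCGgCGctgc
Kcna10, chr3:107182893-107183142, plus strand: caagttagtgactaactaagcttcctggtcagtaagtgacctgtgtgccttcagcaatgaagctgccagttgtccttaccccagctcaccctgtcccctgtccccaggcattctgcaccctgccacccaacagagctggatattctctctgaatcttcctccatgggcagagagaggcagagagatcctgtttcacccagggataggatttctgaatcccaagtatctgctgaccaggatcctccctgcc
Kcnk1, chr8:125994852-125995101, plus strand: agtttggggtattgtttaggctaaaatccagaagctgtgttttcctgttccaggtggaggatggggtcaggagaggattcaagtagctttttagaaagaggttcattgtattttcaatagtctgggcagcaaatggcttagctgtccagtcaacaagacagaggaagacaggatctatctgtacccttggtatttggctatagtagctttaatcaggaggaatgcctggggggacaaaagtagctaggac
Kcnh8, chr17:52602459-52602708, plus strand: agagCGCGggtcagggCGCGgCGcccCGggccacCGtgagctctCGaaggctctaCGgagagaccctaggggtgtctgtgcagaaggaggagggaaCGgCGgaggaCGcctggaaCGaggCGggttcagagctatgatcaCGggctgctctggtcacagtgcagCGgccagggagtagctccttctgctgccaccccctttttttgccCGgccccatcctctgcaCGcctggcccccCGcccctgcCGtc

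The upstream bases of Kcna3 held 31 CG dinucleotides and those of Kcna2 held 18, whereas those of Kcna10 held 0. Kcnk1, at 10.77 and 11.02, had 0 as well, and Kcnh8, not above background, had 20. Upstream bases were at hand for 66 of the 86 subunit genes, with the mean taken over several starts in 15 of them. The 53 genes of these above background had a median of 10 CG dinucleotides and the 13 others a median of 6. Among all named genes with such a sequence, the medians were 15 for the 10496 above background and 3 for the 6494 others. At least 10 CG dinucleotides stood upstream of 29 of the 53 subunit genes above background (54.7%), beside 72.4% of all named genes above background. They stood upstream of 2 of the 13 others (15.4%), beside 16.9% of all other named genes. These shares are descriptions without a test.

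Motifs were searched on both strands of the same bases. TATAAA, the core of the TATA box, was found upstream of 2 of the 66 subunit genes, Kcnj9 and Kcnj16, (3.03%). Its share was 13.2% over all named genes with such a sequence, 8.15% over those above background and 12.4% over all 32851 single windows of that length. GGGCGG, the GC box, which contains a CG dinucleotide, was found upstream of 40 of the 66 (60.6%), of 46.2% of all named genes and in 32.7% of single windows. It was found upstream of 33 of the 53 subunit genes above background (62.3%), the same share as over all named genes above background (62.3%). It was found upstream of 7 of the 13 others (53.8%), beside 20.1% of all other named genes. CCAAT was found upstream of 23 of the 66 (34.8%), of 38.7% of all named genes and in 33.9% of single windows. TGACGTCA, the cyclic AMP response element, was found upstream of 0 of the 66, of 2.30% of all named genes and in 1.55% of single windows. A gene counts as holding a motif if any of its starts does, so shares of genes are to be read against shares of genes. None of these shares was tested.

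**Figure D5:**
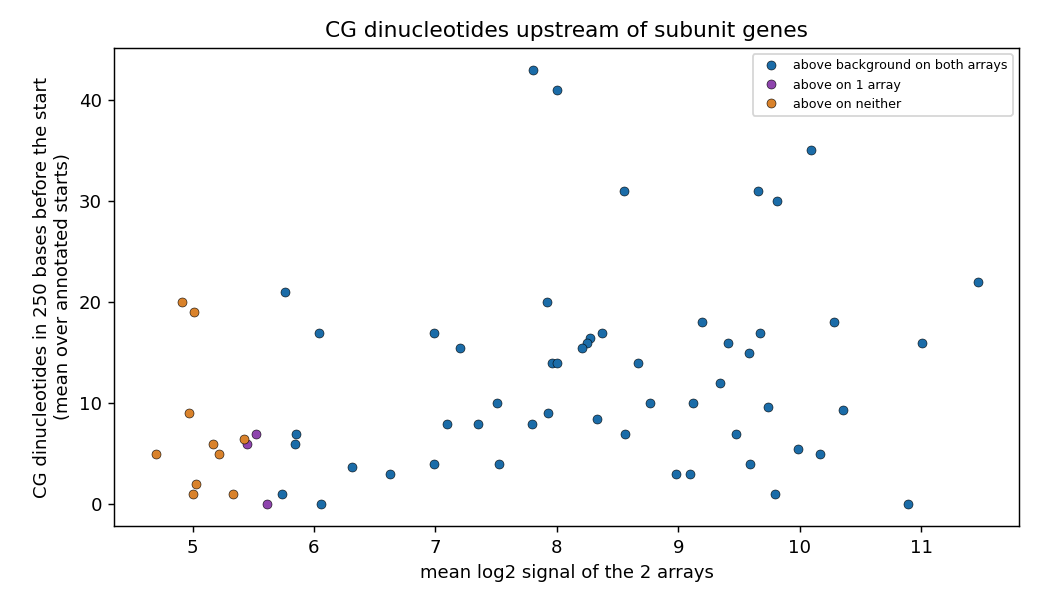
Number of CG dinucleotides in the 250 bases before the annotated start (mean over starts) against the mean log2 signal for the 66 subunit genes with such a sequence, by the number of arrays on which they were above background. Of the 53 genes above background on both arrays 29 had 10 or more, against 2 of the 13 others; Kcnk1 has none although its signal is 10.77 and 11.02.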

How the data were processed

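RNA from tagged ribosomes, taken to come from 1 pool of 5 mice, was measured on 2 technical arrays. Per the labels' protocols, an Affymetrix WT Plus kit was used for biotin labelling. The table the authors deposited has 1 value per array for each probe set, and its range is that of log2 signals. How these were background-corrected, summarised and normalized is not given in the sources used here. Replicates correlated at r = 0.994 over 34472 probe sets, with medians of 5.80 and 5.81. Of these probe sets, 23521 named 1 gene by the platform annotation, 1814 named several and were not used, and 9137 are unnamed here. All 86 member genes matched RefSeq by gene identifier, which changed 0 symbols, and no per-sample column went unused.

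Probe sets of a gene were averaged with pandas 2.3.3 under Python 3.11.15. Background calls need no model and give no p-value. Values are named by rule: the main subunits of cortical neurons, those known mainly from elsewhere, members on the other side of the background from most of their subfamily, members called on 1 array or with discordant probe sets, and the 5 largest array differences. Other members are named in places, after their values were seen. The members and lists were chosen with earlier results of these data known. Linear sums over a marker list add 2 to the power of each log2 signal. Calls were tested on simulated data with genes set well clear of the threshold, so calls close to it were not covered. Alternatives were other thresholds, the highest probe set, single probe sets, quantile normalization and each array alone. With this number of arrays the precision of each value is limited. No gene positions are given for array values, since the sources used here name no build for them.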

Additional observations from a re-analysis of the deposited data

Results flagged for a closer look

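Outside the subunit probe sets described, 8 probe sets carried a Kcn symbol, 4 of them naming several genes and 4 naming a single gene whose symbol does not have the pattern. Signal over the background on both arrays was seen in 6 of them, which the counts of subunits do not use. The probe sets shared by Kcnk3, an acid-sensitive tandem-pore channel, and Gm9899 had means of 8.56 and 7.41, both over the out-of-tissue threshold on both arrays. The probe set of Kcne1l, an auxiliary subunit, had a mean of 7.20 and also passed that threshold. Kcnq1ot1, the long noncoding RNA antisense to Kcnq1, had a mean of 6.21, while Kcnq1 was not above background. The probe set shared by Kcnmb4os1 and Kcnmb4 had a mean of 5.98, and the antisense gene Kcnd3os one of 5.78.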

How the results depend on the processing

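The summary results were recomputed with other thresholds, probe set summaries, normalization or a single array, which gave 71 values. Of these, 69 stayed within 1.5 times the count, or within 1 SD (0.03) of the median. That SD is the one between the medians of the arrays, so the medians of the single arrays were all but bound to stay within it. The limit for counts is wide, since the fall of the subunit count from 69 to 56 lies within it. The inward rectifiers fell from 12 to 7 of 14 genes at the out-of-tissue threshold, and the median over all subunits rose from 7.98 to 8.25 when the highest probe set of a gene replaced the mean. With both arrays, the count of subunit genes above background ranged from 56 (threshold from out-of-tissue genes) and 59 (99th percentile) to 69 with the highest probe set or quantile normalization. It was 67 against the median of all probe sets, where Kcnh6 and Kcnj15 lost their call, and 62 of 79 among genes with 1 probe set. The out-of-tissue threshold removed the calls of 13 genes and the 99th percentile those of 10, and neither added one. With a single array the count was 70 or 71, adding Kcnmb3 on replicate 2 or Kcna10 and Kcnj5 on replicate 1. The medians were then 8.01 and 7.97. No paired analysis was possible because there is 1 group. Signal over background limits the calls of Kcnh6, Kcnj15, Kcne4 and Kcnj8, the 4 called genes with the smallest margin on their closer array.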
